A study of Drosophila melanogaster with 384 samples.

Results

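The regions described here are the listed stretches of the Drosophila melanogaster genome that lie at nuclear tRNA genes. A row of the count table, which is 1 cisTarget region (a piece of the non-coding genome delimited by conservation between species), was taken as a tRNA row when it overlapped a gene of the biotype tRNA or lay within 100 bp of one. Rows within 500 bp of the transcription start site (TSS) of a protein-coding gene were left out. This gave 99 rows at clustered and 58 rows at single tRNA genes, together 0.228% of the 68775 listed rows. They cover 183.922 kb, with a median length of 1044 bp.

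Accessible chromatin was profiled in single cells by ATAC-seq, which uses the Tn5 transposase to cut open DNA and attach sequencing adapters, on the Fluidigm C1, a chip with 1 chamber for each cell. The cells were dissociated from 200 eye-antennal discs of wandering larvae in the third instar, the epithelia from which the adult eye, antenna and head capsule form, and were sorted for GFP and for the absence of the dead-cell dye propidium iodide. All larvae were of the strain F2-B(sens)-GFP (genotype w;F2-B/CyO), which carries GFP under an Atonal-bound enhancer from an intron of senseless (sens), a gene of the R8 photoreceptor. The sort therefore follows the activity of a reporter and not of a cell type, and the labels give neither animal nor chip, so the 72 sens-GFP+ cells of the table were treated as 1 sample.

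tRNA genes are transcribed by RNA polymerase III from a promoter that lies inside the gene itself. The A box and the B box, short elements within the transcribed sequence, are bound by TFIIIC, which brings TFIIIB and then the polymerase, and transcription stops at a run of T just after the gene. In Drosophila, TFIIIB contains the TBP-related factor Trf, and many tRNA genes exist in several identical copies, singly or in clusters spread over the chromosome arms.

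The sequences of 8 tRNA genes are shown because they belong to rows discussed below, some with many and some with no counts. They were picked as examples of a shared or a differing B box and do not represent all tRNA rows. The A box is not marked. They were read from the RefSeq sequence of the release 6 assembly, on the strand of the gene, and run from the first to the last base of the annotated gene. Capitals mark the B box, found as GTTCNANNC, where N is any base.
Leu-CAA-2-3: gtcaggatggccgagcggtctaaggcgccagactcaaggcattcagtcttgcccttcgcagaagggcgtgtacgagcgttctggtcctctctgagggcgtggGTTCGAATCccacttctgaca
Cys-GCA-1-3: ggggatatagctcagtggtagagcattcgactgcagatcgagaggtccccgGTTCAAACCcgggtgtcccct
Gln-CTG-2-5: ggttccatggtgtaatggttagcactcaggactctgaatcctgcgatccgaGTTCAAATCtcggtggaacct
Pro-TGG-1-2: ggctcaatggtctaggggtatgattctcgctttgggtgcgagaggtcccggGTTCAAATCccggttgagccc
Ala-AGC-2-2: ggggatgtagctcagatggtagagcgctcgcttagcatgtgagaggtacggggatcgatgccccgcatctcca
Ser-AGA-2-1: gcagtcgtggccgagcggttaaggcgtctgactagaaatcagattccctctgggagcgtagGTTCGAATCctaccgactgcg
Asp-GTC-1-12: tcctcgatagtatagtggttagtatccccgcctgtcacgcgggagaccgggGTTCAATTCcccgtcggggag
Val-CAC-2-1: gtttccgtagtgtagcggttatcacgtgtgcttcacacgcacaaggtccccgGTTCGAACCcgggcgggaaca

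The first 5 of these genes lie in rows with 20, 11, 14, 12 and 12 counts, Pro-TGG-1-2 and Ala-AGC-2-2 sharing a row. The last 3 lie in rows in which no cell had a count. The B box pattern was matched in all 3 of the latter, and Ala-AGC-2-2 was the one of the 8 without a match. It reads gatcgatgc near its end, which differs from the pattern by 1 base. A missing match therefore does not show that a gene lacks a B box. Ser-AGA-2-1 on the X chromosome (14025566 to 14025647, minus strand) shares its row with Ser-AGA-3-1, from which it differs by 1 base (A77G, counted from the first base of the gene, with the base of Ser-AGA-2-1 first). Asp-GTC-1-12 on 3R (24914834 to 24914905, plus strand) likewise shares its row with Asp-GTC-3-1, which differs by 1 base (G67T, with the base of Asp-GTC-1-12 first).

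The annotation holds 290 nuclear tRNA genes, and the 22 mitochondrial ones were not used. Of these 290, 63.4% lay in or beside a tRNA row, 75 lay only in rows near a protein-coding TSS, which were left out, and 31 had no listed row. A match to the B box pattern GTTCNANNC was present in 93.4% of the nuclear genes and in 94.02% of those of the tRNA rows. The other genes may have a B box that differs from this pattern. The run TTTT occurred within 40 bases after the gene in 98.9% of the genes of the tRNA rows and within 40 bases before it in 38.04%. Among the 290 genes there were 95 distinct sequences, and 82.1% of the genes had at least 1 identical copy.

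The cells had between 908 and 5892 counts in listed rows (median 2694.5) and 197425 in total. As a check of the sort, counts per kb were taken in the 5 kb upstream of a gene plus its introns. They were 17.3 for gl, which encodes the photoreceptor factor Glass, and 11.99 for sens. The sens value cannot check the sort, since the sens introns include the enhancer that drives the sorted GFP. The strain also carries this enhancer in its reporter. The 4 photoreceptor genes had between 6.14 and 17.3 and the 5 R8 and furrow genes between 1.87 (boss) and 11.99 (sens), with ato at 2.76. The 3 glial genes had between 1.93 (repo) and 3.39 (gcm), and the 3 hemocyte genes between 1.13 (eater) and 5.84 (Hml). Brain genes had between 2.76 (hbn) and 3.51 (dati), muscle precursor genes between 1.66 (Him) and 3.03 (Mef2). Antennal genes had between 1.97 (ss) and 3.11 (ct). Not every gene of the other cell types was thus low, and boss and ato lay within the range of these genes. There was 1 group and no replicate, so no test was made. Intervals are exact 95% Poisson, Clopper-Pearson or conditional rate-ratio intervals and cover counting error only. They also take counts as independent. Reads amplified by PCR without molecular identifiers need not be independent molecules, even after removal of duplicates.

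The tRNA rows held 719 counts, or 3.91 counts per kb (interval 3.63 to 4.21). This was 0.364% of all counts on 0.232% of the listed bases. At least 1 count was found in 90.4% of the rows (84.7 to 94.6%), and 15 rows had none. Among the other distal rows, which are all rows farther than 500 bp from a protein-coding TSS that are not tRNA rows, 80.4% had a count, and among protein-coding promoter rows 85.6%. tRNA rows were longer than other distal rows (median 1044 against 915 bp), and a longer row has more chance of a count.

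Per kb, tRNA rows had 2.04 times the counts of the 52234 other distal rows (interval 1.89 to 2.19), whose density was 1.92. They had 0.813 times the counts of the 16384 promoter rows (0.754 to 0.875), whose density was 4.81. The density of other distal rows fell with row length, from 2.96 in the length class that starts at 400 bp to 0.449 in rows of 3000 bp or more. With other distal rows weighted to the lengths of the tRNA rows, the ratio was 1.81. With both classes limited to rows in which at least 90% of the 31-base words occur once in the genome, it was 1.54, the lowest value of all the settings tried. That limit left the tRNA rows at 3.67 counts per kb and raised the other distal rows to 2.38.

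Individual rows differed widely. The density of the tRNA rows had a median of 2.63 counts per kb, quartiles of 1.29 and 4.98 and a highest value of 49.03. The median was 1.41 in other distal rows and 2.98 in promoter rows. A total of 110 tRNA rows (70.1%) were above the median of the other distal rows. The 90th percentile of the other distal rows, 5.91 counts per kb, was reached by 35 tRNA rows (22.3%), against 10.0% of the other distal rows themselves and 32.03% of promoter rows.

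**Figure D1:**
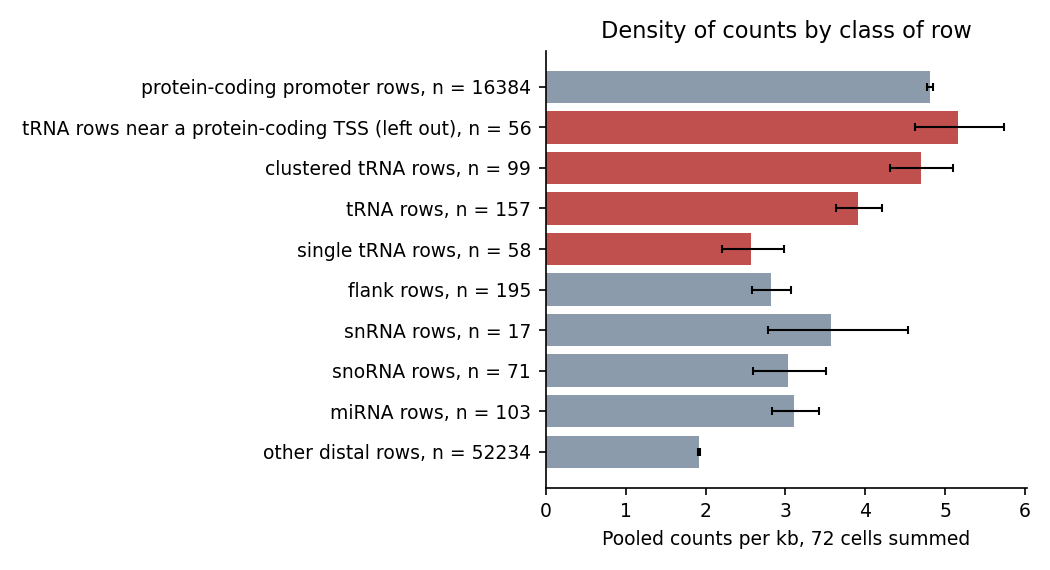
Pooled counts per kb, summed over the 72 cells, in each class of row, with n the number of rows. Bars start at 0, red bars are classes of rows at tRNA genes and error bars are exact 95% Poisson intervals. tRNA rows (3.91) lie between other distal rows (1.92) and promoter rows (4.81), and clustered tRNA rows (4.69) lie above single ones (2.57).

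The counts of the tRNA rows were concentrated. No count was found in 15 rows, 1 count in 29 and 2 to 4 in 63, while 25 rows had 5 to 9 counts and 25 had 10 or more. The 5 rows with most counts held 16.3% of the counts and the first 10 held 26.4%. Without those first 5 rows the ratio to other distal rows was 1.76.

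The row with most counts (2R:17392117-17392891) lies between genes and holds tRNA:Ala-TGC-2-1, which decodes alanine codons. It had 38 counts in 27 of the 72 cells, or 49.03 counts per kb (34.7 to 67.3), a density above that of 99.98% of the other distal rows. No cell had more than 3 counts there, so the value does not come from 1 cell. Its flanking rows had 4.51 counts per kb.

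The second row (3L:14673773-14674684) holds tRNA:iMet-CAT-1-4 and tRNA:iMet-CAT-1-5, genes of the initiator methionine tRNA with which translation begins, and overlaps the genes CG4914 and ome. It had 26 counts in 18 cells, or 28.5 per kb (18.6 to 41.8). The interval overlaps that of the first row.

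The third (3R:23601254-23602602) holds tRNA:Leu-CAA-2-3, the gene shown first above, within CG10184, and had 20 counts in 19 cells, or 14.8 per kb (9.06 to 22.9). The gene is a single one, with no other tRNA gene within 5 kb. The row at the 3 copies of tRNA:Ala-CGC-1 in gol (2R:25075722-25077174) had 17 counts in 13 cells.

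Both tRNA:Ser-TGA-1-1 in l(2)k09913 (2R:23071552-23072354) and tRNA:Thr-TGT-2-3 (2R:11403106-11404915, intergenic) lay in rows with 16 counts. The former is the shorter, so its density was 19.9 per kb against 8.84. The row of tRNA:Thr-AGT-1-7 in bnl (3R:19801960-19802832), the gene of the fly FGF Branchless, had 15 counts in 13 cells. A further 3 rows had 14 counts each. They hold tRNA:Arg-CCT-1-2 and 1-3 (2R:20000249-20000992), tRNA:Gly-GCC-1-4 to 1-6 (2L:14518052-14519447) and tRNA:Gln-CTG-2-5 within CG4238 (2L:2012491-2014251). The counts of the fourth to the tenth of these rows, from 17 to 14, did not differ beyond counting error.

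By density, the fifth highest row of at least 200 bp (3L:3096165-3096757) lies in the chitinase gene Cht7 and holds tRNA:Cys-GCA-1-3 and tRNA:Lys-CTT-1-12. It had 11 counts in 11 cells, or 18.5 per kb (9.26 to 33.2). No cell had more than 1 count there.

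Here and below, a tRNA gene within 100 bp of a row is counted with the genes that the row holds. The rows with 5 and with 4 tRNA genes had few counts. The row with most genes, 5 (3R:8139666-8140865, tRNA:Asn-GTT-1-10 and tRNA:Arg-ACG-1-6 to 1-9), had 2 counts in 2 cells, or 1.67 per kb (0.202 to 6.02). Of its 31-base words, 83.8% occur once in the genome. The row with 4 genes (X:14015590-14016980, tRNA:Ser-CGA-1-2 and tRNA:Arg-TCG-3-1 to 3-3) had 1 count, and 50.99% of its 31-base words occur once in the genome. A total of 8 rows held 3 genes, with 17, 14, 12, 7, 7, 4, 4 and 1 counts. Of these the 3 with most counts were named by rule. The row at tRNA:Ala-AGC-2-2, tRNA:Pro-TGG-1-2 and tRNA:Ala-AGC-2-3 (3R:17619608-17621471) had 12 counts, against 17 at Ala-CGC-1 and 14 at Gly-GCC-1.

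Among the 15 rows without a count, 2 held 2 genes and the other 13 held 1. The rows with 2 genes were X:14024765-14025839 with tRNA:Ser-AGA-3-1 and tRNA:Ser-AGA-2-1 and 3R:24914700-24915193 with tRNA:Asp-GTC-1-12 and tRNA:Asp-GTC-3-1 in PIG-S. The longest of those with 1 gene was 3R:7450410-7451585 with tRNA:Val-CAC-2-1. A count of 0 allows up to 3 counts in each (one-sided 95% limit), so low accessibility and absence cannot be told apart at this depth. In 7 of the 15 rows the gene was a single one.

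**Figure D2:**
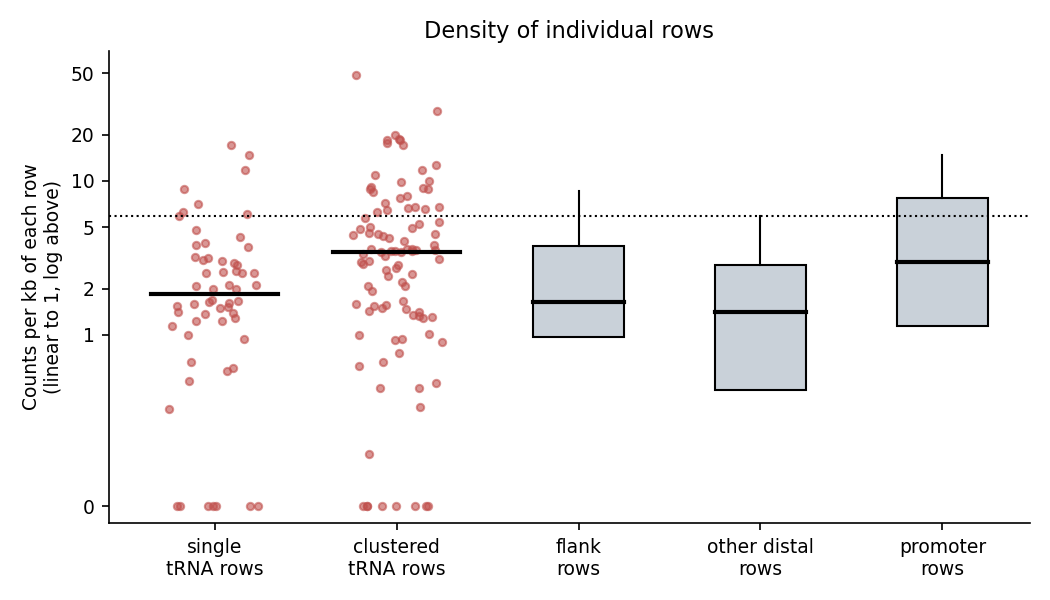
Counts per kb of individual rows, on an axis that is linear to 1 and logarithmic above. Points are the 58 single and 99 clustered tRNA rows, with the median as a thick line. Boxes give the quartiles and median of the other classes, with a line up to the 90th percentile, and the dotted line is the 90th percentile of other distal rows (5.91 counts per kb). The medians are 1.84 and 3.45 for single and clustered tRNA rows.

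tRNA genes were called clustered when another tRNA gene lay within 5 kb. By this rule 73.8% of the 290 genes formed 68 chains of 2 or more genes, and 76 genes were single. The 99 clustered rows had 4.69 counts per kb (4.31 to 5.10) and the 58 single rows 2.57 (2.21 to 2.99), a ratio of 1.82 (1.53 to 2.17). The row medians differed in the same direction, 3.45 against 1.84. The 90th percentile of other distal rows was reached by 27 of 99 clustered and 8 of 58 single rows, and 91.9% and 87.9% had a count. The ratio was 1.72 without the 5 rows with most counts, and 1.54 when chains were allowed gaps of 20 kb.

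The density did not rise steadily with the size of the chain. Rows of single genes had 2.57 counts per kb, rows of pairs 4.84, rows of chains of 3 or 4 genes 5.46 (4.68 to 6.33), and rows of chains of 5 or more genes 3.47 (2.80 to 4.25). The row medians followed the same order, with 1.84, 2.93, 4.86 and 2.15. The highest row weighs most among the pairs, which had 4.23 counts per kb without it. The share of 31-base words found once in the genome went down to 50.99% in rows of chains of 5 or more genes. In rows of pairs it went down to 47.4%. Its effect on the order of the chain sizes was not tested. The largest chains have 11 genes. The one on 3R, to which the genes Ala-AGC-2-2 and Pro-TGG-1-2 shown above belong, has genes for alanine, proline, threonine and valine tRNAs. Only 5 of its 11 genes lay in or beside tRNA rows. These 3 rows had 13 counts, or 3.29 per kb (1.75 to 5.63). Of these counts, 12 were in the row of the 2 genes shown, which lies 508 bp from a protein-coding TSS. The other, on 2R, has genes for arginine, asparagine, isoleucine and lysine tRNAs, of which 8 lay in or beside tRNA rows. These 5 rows had 10 counts, or 1.87 per kb (0.897 to 3.44).

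By the number of genes in or beside the row, the density was 3.48 in rows with 1 gene, 4.99 in the 31 rows with 2 and 5.26 in the 10 rows with 3 or more. Rows that overlapped a tRNA gene had 1.88 times the counts per kb of the 18 rows that only lay beside one (1.38 to 2.63), at 4.12 against 2.19.

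To see how far the higher density reached, rows were set against their surroundings. Each tRNA row was compared with the nearest distal row on either side within 10 kb. These flanking rows held 543 counts, or 2.82 per kb (2.59 to 3.06), so tRNA rows had 1.39 times their density (1.24 to 1.55). Flanking rows in turn had 1.47 times the density of other distal rows as a whole (1.35 to 1.60). Row by row the difference was smaller. Of the tRNA rows with a flank, 89 (57.4%) were above the density of their flanks, 63 below and 3 equal, and 2 rows had no flank. Without the 5 rows with most counts the ratio to flanks was 1.21 (1.07 to 1.36).

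By distance, the density was 3.91 in the tRNA rows, 3.11 in other distal rows over 100 and up to 1000 bp from a tRNA gene, and between 2.41 and 2.92 in the 4 classes from 1 to 50 kb. It was 1.86 (1.85 to 1.87) beyond 50 kb, a class that also holds the rows on chromosomes without a tRNA gene. The row medians behaved differently. They were 2.63 in tRNA rows, 1.72 at 100 to 1000 bp and between 1.40 and 1.54 in all classes farther away. The step from the tRNA row to its neighbour was thus seen in both measures, while the difference between 1 and 50 kb and the rest of the genome was seen mainly in the pooled density.

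**Figure D3:**
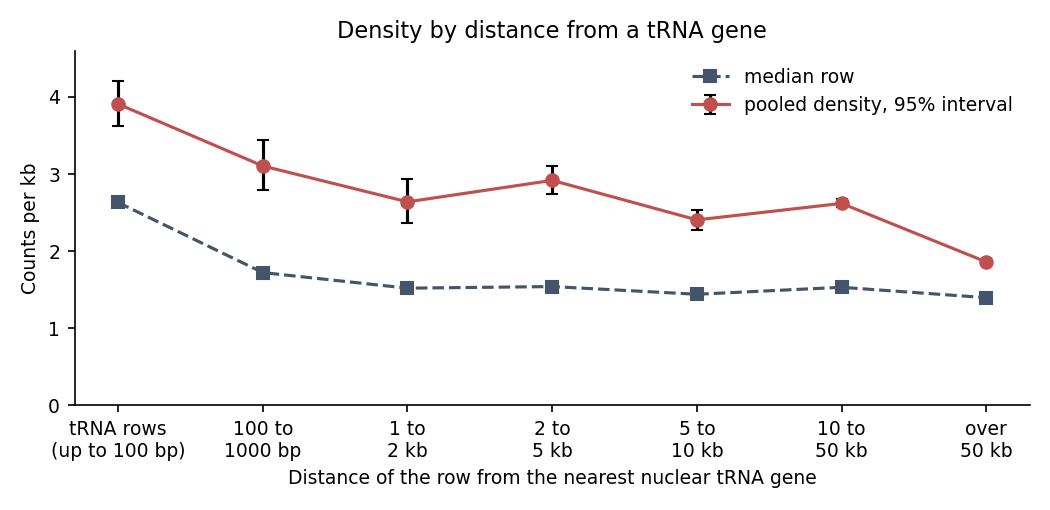
Counts per kb in rows by distance from the nearest nuclear tRNA gene. Red circles are pooled densities with exact 95% Poisson intervals and squares are the medians of the rows. The class beyond 50 kb includes rows on chromosomes without a tRNA gene. The pooled density is 3.91 in tRNA rows, 3.11 at 100 to 1000 bp and 1.86 beyond 50 kb, and the medians are 2.63, 1.72 and 1.40.

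Rows near protein-coding genes are denser in general, so position was examined next. The 67 intergenic tRNA rows had 4.23 counts per kb, which was 2.61 times the density of intergenic distal rows (2.33 to 2.91). The 90 tRNA rows that overlapped protein-coding genes had 3.68, or 1.75 times that of distal rows in such genes (1.58 to 1.93). The 2 kinds of tRNA row were not distinguishable from each other (ratio 1.15, 0.989 to 1.33). By distance from a protein-coding TSS, the ratio of tRNA rows to other distal rows was 1.78 up to 1 kb, 1.75 at 1 to 2 kb, 1.38 (1.19 to 1.60) at 2 to 5 kb, 2.05 at 5 to 10 kb and 2.87 (2.45 to 3.34) beyond 10 kb. With other distal rows weighted to the TSS distances of the tRNA rows it was 1.77.

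The 56 rows with a tRNA gene that were left out for a protein-coding TSS had 5.16 counts per kb. Against the promoter rows without a tRNA gene the ratio was 1.07 (0.961 to 1.19), so no difference in pooled density was detectable. The row medians did differ, with 4.67 against 2.97 counts per kb. Above the median of other distal rows were 83.9% against 69.7%. Rows at other small RNA genes had densities of 3.58 at snRNA genes (17 rows), 3.03 at snoRNA genes (71 rows) and 3.11 at miRNA genes. tRNA rows were denser than the snoRNA rows by 1.29 times (1.09 to 1.53) and than the miRNA rows by 1.26 times (1.11 to 1.42). The difference from snRNA rows was within counting error (1.09, 0.852 to 1.42). The row medians were 2.95 at snRNA, 2.32 at snoRNA and 1.61 at miRNA genes, against 2.63 in tRNA rows. Above the median of other distal rows were 76.5%, 66.2% and 53.4%, against 70.1% of tRNA rows. By these row measures the snRNA rows thus lay above the tRNA rows, and the snoRNA rows not far below.

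The chromosome arms differed. On X the 16 tRNA rows had 36 counts, or 2.42 per kb, and the ratio to other distal rows of the same arm was 1.07 (0.752 to 1.49). The ratio was 1.53 on 2L (1.24 to 1.87), 2.13 on 3L (1.79 to 2.52), 2.08 on 3R (1.79 to 2.40) and 2.47 on 2R (2.18 to 2.79). tRNA rows on X had 0.600 times the density of those on the autosomal arms (0.416 to 0.839). Other distal rows were in the opposite order, with 1.18 times the autosomal density on X. Among rows with at least 90% of unique 31-base words, the ratio of tRNA to other distal rows was 0.989 on X (13 rows, 0.657 to 1.43) and between 1.31 and 1.75 on the 4 autosomal arms. The row medians did not show the same. On X the median was 2.05 counts per kb in tRNA rows against 1.47 in other distal rows, and 2.51 against 1.50 among rows with unique words, where 2L had 1.98 against 1.43. Without the X tRNA row with most counts, the median of the remaining 15 rows was 1.59 against 1.47. The ratio was then 0.921 (0.617 to 1.32). The lack of a higher density on X was thus seen in the pooled value, while the medians of these few rows shift with 1 row. The highest tRNA row on X had 7 counts. It lies in a tRNA array (X:14014684-14015589, tRNA:Arg-TCG-2-1, tRNA:Ser-CGA-1-1 and tRNA:Ser-CGA-1-2), next to the row with 4 genes and 1 count. This row, and the sets of identical genes named below, were chosen after their values were seen.

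By amino acid, rows were pooled where all genes of the row carry the same one. The density was highest at alanine genes, with 9.87 counts per kb (7.79 to 12.3) in 7 rows. Initiator methionine followed with 8.52 (5.83 to 12.03) in 4 rows, asparagine with 7.11 (4.95 to 9.89) in 6, isoleucine with 6.28 (3.72 to 9.93) in 3, histidine with 5.82 (3.10 to 9.95) in 2 and serine with 5.37 (4.21 to 6.75) in 14. The first 2 values rest largely on 1 row each, since the row medians were 4.62 for alanine and 2.52 for initiator methionine. Asparagine had a median of 6.68, and its neighbours in this order do not differ from it beyond their intervals. The lowest densities were found at elongator methionine genes (1.10, 0.358 to 2.57, 3 rows), tyrosine genes (1.38, 0.688 to 2.47, 6 rows), tryptophan genes (1.66, 0.201 to 5.99, 2 rows), cysteine genes (1.87, 0.853 to 3.54, 5 rows) and valine genes (1.91, 1.19 to 2.89, 10 rows). Rows with genes for several amino acids were left out of these values. Counted under each of theirs, they moved cysteine to 3.795 (2.43 to 5.65, 7 rows), which is then not among the lowest, and asparagine to 5.79 (4.12 to 7.91, 8 rows).

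Genes of identical sequence lay in or beside rows of very different density. Among all tRNA genes, 27 were counted in 2 tRNA rows, so the rows of a set are not always different copies. Of the 22 sets of identical genes that lie in or beside 3 or more tRNA rows, 8 had a row without a count. In 13 sets the rows ranged from below the median to above the 90th percentile of the other distal rows. Over all tRNA rows, 9.55% had no count, 29.3% lay below that median and 22.3% reached that percentile, so sets of several rows hold such rows also without regard to sequence, and the counts of sets were not tested against this. The 5 identical genes of Ser-AGA-2 lay in or beside 6 rows. The row at tRNA:Ser-AGA-2-4 (2L:3172719-3173306) had 10 counts in 9 cells, or 17.01 per kb, the 4 rows at 2-2, 2-3 and 2-5 had between 1 and 3 counts, and the row at 2-1, whose sequence is shown above, had none. In Cht7, the 4 identical genes of Cys-GCA-1 lay in or beside adjacent rows with 2, 2, 11 and 4 counts. The first of these rows holds none of them and lies within 100 bp of tRNA:Cys-GCA-1-1. The copies of Asp-GTC-1 ranged from 0 to 8 counts in 5 rows, and those of Val-CAC-2 from 0 to 6 in 6 rows. Of the 11 genes of Ala-AGC-2, which lack a match to the B box pattern, 6 lay in tRNA rows, and these 5 rows had 12, 5, 3, 3 and 0 counts. Reads that fall wholly within identical genes cannot be assigned to 1 copy. The genes make up a small part of each row, and a median of 95.2% of the 31-base words of a tRNA row occur once in the genome, against 100% in other distal rows. How the aligner shared such reads among the copies was not tested.

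**Figure D4:**
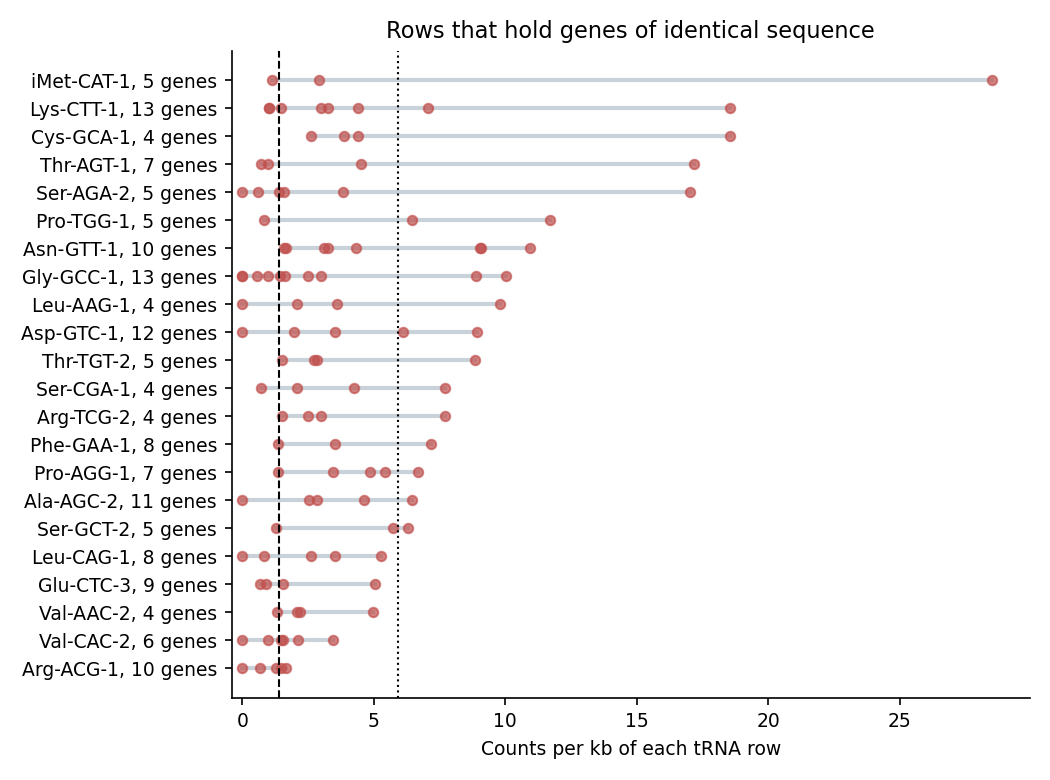
Counts per kb of the tRNA rows that hold genes of identical sequence or lie within 100 bp of them. Shown are the 22 sets with 3 or more rows, with the number of identical genes in the annotation beside each name. Each point is 1 row, and rows with genes of 2 sets appear under both. The dashed line is the median of other distal rows (1.41) and the dotted line their 90th percentile (5.91). In 13 sets the points lie on both sides of both lines.

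The sequence of the rows was searched on both strands for short motifs. The B box core GGTTCGA was present in 54.8% of tRNA rows (46.6 to 62.7%), as follows from their tRNA genes, against 6.90% of other distal rows, or 7.33% with these weighted to the same lengths, and 6.53% of promoter rows. tRNA rows with and without the core had nearly the same density, 3.96 and 3.84 counts per kb. The letters TATAAAA, the TATA box, were found in 55.4% of tRNA rows (47.3 to 63.3%) and in 42.6% of length-weighted other distal rows. GAGAGAG, bound by the GAGA factor, was found in 14.01% against 14.3%. TATCGATA, shared by the insulator protein BEAF-32 and the promoter factor DREF, was found in 2.55% of tRNA rows (0.698 to 6.39%), in 2.40% of length-weighted other distal rows and in 8.22% of promoter rows. The B box core shares letters with GTTCNANNC, and a match is not a bound site.

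In single cells, every one of the 72 cells had at least 1 count in a tRNA row. The number per cell ranged from 1 to 23 with a median of 9.5, and these counts lay in 1 to 19 rows (median 8). The share of the counts of a cell that fell in tRNA rows was lowest at 0.0951%, had a median of 0.367% and was highest at 0.680%. The density in tRNA rows exceeded that in other distal rows in 64 of 72 cells, with a median ratio of 1.96 and a range from 0.499 to 3.90. It exceeded that in promoter rows in 19 cells. The variance of the tRNA share over cells was 1.49 times the binomial variance, so the shares varied somewhat more than independent counts give. Counts need not be independent here, and whether the cells themselves differ was not tested. Of all entries of tRNA rows, 5.41% were above 0, against 2.70% in other distal rows, and the largest was 5. In the 25 rows with 10 or more counts, counts were spread over cells with a variance of 0.824 to 3.23 times that of Poisson counts (median 1.24).

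**Figure D5:**
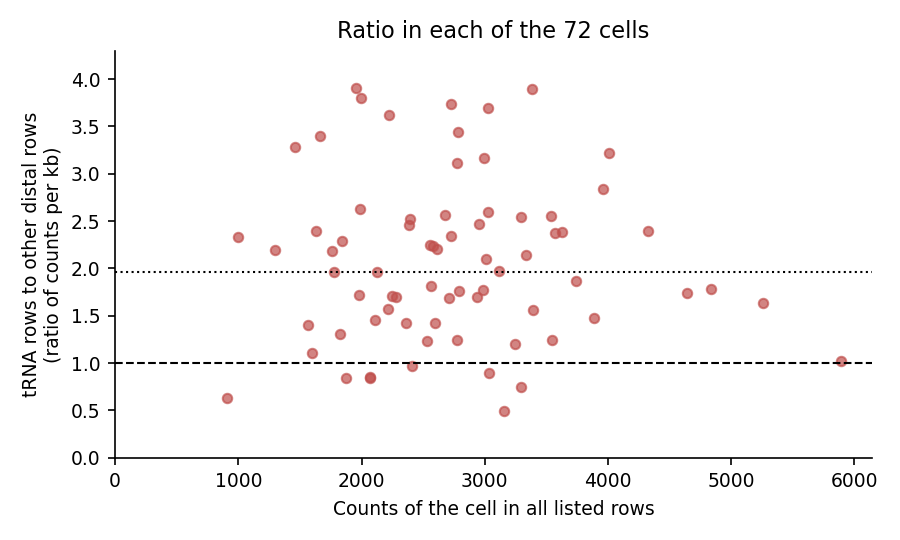
Ratio of counts per kb in tRNA rows to that in other distal rows for each of the 72 cells, against the counts of the cell in all listed rows. The dashed line is a ratio of 1 and the dotted line the median of 1.96. The ratio exceeds 1 in 64 cells.

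The genes that encode the polymerase III machinery were examined at their own promoters, from a list of 18. A promoter row was listed for 16, and 13 of these were above the median gene. The median of the list was 6.36 counts per kb, against 3.68 over the 11726 genes with a promoter row. Row lengths were not matched here. Promoter rows had 5.97 counts per kb in the length class that starts at 400 bp and 1.31 in rows of 3000 bp or more. How far length accounts for the values of the list was not tested. The values rest on few counts. The highest was at Pbp49, a subunit of the snRNA-activating complex, with 17 counts (19.1 per kb, 11.1 to 30.5). The polymerase subunit genes Polr3E and Polr3F had 7 and 10 counts. Most of the other subunit genes had between 1 and 4, and 1 of them lay below the median gene. La, which binds the ends of new polymerase III transcripts, had 5 counts. Brf and Trf, which both belong to TFIIIB, had 0 counts, which allows up to 3 in each by the same one-sided limit. Bdp1, another TFIIIB subunit, had 6.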

How the data were processed

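The study's methods and the submitters' processing notes name trimming with fastq-mcf, mapping with Bowtie2 (2.2.5), its parameters left at default, to FlyBase release 6 (dm6), SAMtools (1.2), removal of duplicates with Picard and a choice of cells by eye from aggregation plots. The values deposited are whole-number counts per region and cell, which the authors left unnormalised. The counting tool, whether reads or fragments were counted, a transposase offset, whether reads that map to several places were removed after mapping and the rule for listing rows are not given in the sources used here. Library fragments under 150 bp, adapters included, were removed.

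Each of the 72 columns matched the title of 1 sample, and 0 columns were left unused. Cells had 908 to 5892 counts. Counts were summed over cells and divided by row length for 157 tRNA rows and for the rows they were compared with. Genes came from Ensembl release 115 and sequences from RefSeq, both of the release 6 assembly, and all row ends lay within the arm lengths. Starts count from 0 in the table and are printed from 1. miRNA genes were the ncRNA genes named mir-. JhI-1 is listed as RNaseZ, and Maf1 and Pbp45 had no promoter row. The value of 1 gene of the polymerase III list is not reported here.

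With 1 group, no test was made. Ratios carry exact conditional 95% intervals, checked on simulated data with known ratios. They cover counting error and not the spread between rows. The members and lists were chosen with earlier results of these data known. Rows named were the 10 with most counts, the 5 with most counts per kb among rows of at least 200 bp, the 5 with most tRNA genes (ties by counts) and the 3 without a count with most genes (ties by length). Sequences were chosen among their genes, leaving out any identical to a gene on arm 2R. Alternatives changed the distance limits, the weighting, the filters on rows and cells and the chain rule. Python (3.11.15) was used with numpy (2.4.6), pandas (2.3.3), scipy (1.17.1) and matplotlib (3.10.9).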

Additional observations from a re-analysis of the deposited data

How the results depend on the processing

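No paired analysis was possible because there was 1 group. No result reversed, 85 recomputed values moved by less than their counting interval and 19 by more. Members within 500 bp of a tRNA gene gave a density of 3.62, ratios of 1.89 to other distal rows and 0.753 to promoters, and a share of counts of 0.443%. That share was 0.416% with rows left out within 100 bp of a protein-coding TSS, 0.300% within 1000 bp and 0.335% within 500 bp of the TSS of any gene other than a tRNA. Counting each row once per cell gave a density of 3.33. Rows with at least 90% of unique 31-base words gave ratios of 1.54 to other distal rows and 0.717 to promoters and a share of 0.306%. The ratio to other distal rows was 1.81 with length weighting and 2.61 between genes. Rows with 2 or more tRNA genes had 1.45 times the density of rows with 1, against 1.82 for clustered to single. Among alternatives chosen after seeing the data, weighting by TSS distance gave a ratio to other distal rows of 1.77, and leaving out the 5 rows with most counts gave a density of 3.37 and ratios of 1.76, 0.701 and 1.21 to other distal, promoter and flanking rows. The fall of the ratio to other distal rows under the limit on unique words came mostly from the other distal rows, which rose from 1.92 to 2.38 counts per kb. The cause of the other shifts was not tested.

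At this depth 15 tRNA rows had no count and 29 had 1, so the order of single rows below about 10 counts is not resolved. Intervals leave out the spread between rows and any second sort.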
